A study of Homo sapiens with 4 samples.

Results

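Drug efflux genes were examined in the 4 RNA-seq libraries of the study: ABCB1, ABCC1, ABCC2, ABCC3, ABCC5, ABCC10, ABCG2 and MVP, 8 of the 58735 genes in the count table. The genes were taken by symbol through their Ensembl identifiers, and each was matched by 1 row. MDA-MB-231 and SUM159 are human triple-negative breast cancer (TNBC) cell lines. Cells of each line received 1 μM mebendazole (MBZ), an antiparasitic benzimidazole that binds tubulin, or the solvent DMSO for 72 h, and 1 library enriched for mRNA was sequenced for each of the 4 conditions. The MDA-MB-231 cells came from a cell bank and the SUM159 cells from another laboratory; both are established cell lines grown in culture. All 4 conditions share the 72 h of culture, and no untreated cells without DMSO were analysed.

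ATP-binding cassette (ABC) transporters use ATP to move compounds across membranes. Several of those in the plasma membrane pump chemotherapy drugs and their glutathione or glucuronide conjugates out of the cell, and they are studied in breast cancer for their part in multidrug resistance. The ABCB1 and ABCG2 proteins export unmodified hydrophobic drugs, and the ABCC proteins, also called MRPs, are best known for organic anions and conjugates. MVP is not a transporter: it is the main protein of the vault, a large ribonucleoprotein particle of the cytoplasm, and it is listed with the pumps because it was found in drug-resistant cells.

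The libraries held between 17143139 and 24897586 counts, and 3 counts, the limit that a count of 0 allows, corresponded to between 0.129 and 0.181 CPM, the usual unit of counts scaled to library size. As markers of mesenchymal TNBC cells, the libraries held 20703 to 54409 counts of VIM (vimentin), 0 counts of the progesterone receptor PGR in all 4 libraries and at most 18 counts of the estrogen receptor ESR1. The receptor gene ERBB2 had 1216 to 1996 counts. Epithelial markers were mixed: the keratins KRT8 and KRT18 had at least 9430 and 4197 counts in every library, EPCAM had 144 and 190 counts in the MDA-MB-231 line and 6 and 9 in the SUM159 line, and CDH1 (E-cadherin) had at most 12. The summed level of 25 genes used in G2 and mitosis was 5857 CPM under DMSO and 3167 CPM with MBZ in the MDA-MB-231 line, and 568 CPM and 2701 CPM in the SUM159 line, so the SUM159 DMSO library stood apart in this list. The summed level of 10 markers of immune, endothelial, stromal and fat cells was 28.7 CPM and 28.9 CPM in the MDA-MB-231 line and 256 CPM and 68.6 CPM in the SUM159 line. Genes with at least 1 count numbered 22278 under DMSO and 24416 with MBZ in the MDA-MB-231 line, and 23015 and 27239 in the SUM159 line. More genes were thus detected with MBZ in each line. The part of these shifts in the results on efflux genes, and in rises from counts near 0, was not tested. In bulk RNA, fewer cells that express a gene and less RNA of it per cell cannot be told apart. Nothing in the labels states how many cultures stand behind a library, and a change within a line, resting on 1 library per condition, cannot be checked against replicates.

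Promoter stretches of 4 genes are shown because their counts, described further on, stand for 4 patterns: higher with MBZ in both lines (ABCG2), opposite in the lines (ABCC2), lower in the SUM159 line (ABCB1) and not past 1.5-fold in either (ABCC10). The share of all genes with each of these patterns is not given here. RefSeq windows of GRCh38.p14, from 250 bases before to 50 bases after an annotated start, were matched for 6 of the 8 genes with 14 windows in all, and ABCC1 and ABCC3 are named only. The stretches below are the longest runs before each start outside annotated exons of the gene, read 5′ to 3′ on its strand. Shorter runs outside exons, as in the ABCC10 window, are not printed. Capitals mark matches, on either strand, to TGACNNNGC (the core of the element bound by NRF2), GCGTG (the core bound by the aryl hydrocarbon receptor with ARNT), CCAAT (bound by NF-Y) and GGGCGG (the GC box bound by SP1). No motif in this set contains another.
ABCG2 distal start, chr4:88231629-88231876, minus strand: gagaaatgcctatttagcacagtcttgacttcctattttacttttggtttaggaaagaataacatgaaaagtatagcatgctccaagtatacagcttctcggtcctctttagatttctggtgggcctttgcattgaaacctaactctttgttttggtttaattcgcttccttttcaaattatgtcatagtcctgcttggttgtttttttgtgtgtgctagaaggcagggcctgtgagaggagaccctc
ABCG2 inner start, chr4:88159025-88159159, minus strand: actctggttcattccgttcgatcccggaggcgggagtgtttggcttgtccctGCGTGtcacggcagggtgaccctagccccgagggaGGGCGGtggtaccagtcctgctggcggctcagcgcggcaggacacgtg
ABCC2, chr10:99782390-99782639, plus strand: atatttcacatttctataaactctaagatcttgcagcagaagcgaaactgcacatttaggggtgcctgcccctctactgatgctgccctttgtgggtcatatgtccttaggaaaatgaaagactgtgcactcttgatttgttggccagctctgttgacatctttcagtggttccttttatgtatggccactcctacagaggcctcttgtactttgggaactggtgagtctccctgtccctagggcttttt
ABCB1 distal start, chr7:87713324-87713545, minus strand: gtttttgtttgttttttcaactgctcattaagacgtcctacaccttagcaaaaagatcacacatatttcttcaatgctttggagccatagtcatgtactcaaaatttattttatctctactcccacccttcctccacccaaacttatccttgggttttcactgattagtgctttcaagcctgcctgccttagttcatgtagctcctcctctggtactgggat
ABCC10, chr6:43427390-43427540, plus strand: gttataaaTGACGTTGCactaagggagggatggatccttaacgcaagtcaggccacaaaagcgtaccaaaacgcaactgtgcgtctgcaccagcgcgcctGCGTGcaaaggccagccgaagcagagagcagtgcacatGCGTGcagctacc

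TGACNNNGC was found in 2 of the 14 windows of the efflux genes and in 13.3% of all 35116 windows of the reference. GCGTG was found in 6 of the 14 and in 36.5% of all windows, CCAAT in 2 and in 34.6%, and GGGCGG in 4 and in 45.0%. The 14 windows are not independent, since windows of neighbouring starts of ABCG2 and MVP share bases. The ABCC2 window and the distal windows of ABCB1 and ABCG2 held none of the 4 motifs. The second window of ABCB1, which is not printed, had 2 matches to CCAAT and 1 to GCGTG. Another ABCG2 window that is not printed had 1 match to TGACNNNGC. The inner ABCG2 start printed above had 2 matches to GCGTG and 2 to GGGCGG in its whole window, of which 1 each lies in the printed stretch. The ABCC10 window printed above had 1 match to TGACNNNGC, 143 bases before the start, and 3 to GCGTG, and the second ABCC10 window had 5 matches to GGGCGG and none to the other 3. A match is a run of letters and says nothing on whether a factor binds there.

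Levels of different genes were compared as RPKM, the CPM divided by the exon length of the gene in kilobases, with library sizes scaled over the 4 libraries by edgeR's TMM method. Of the 8 genes MVP had the highest level in 4 of 4 libraries, and ABCB1 the lowest. Among the pumps the leading gene depended on the line: ABCC1 led in the MDA-MB-231 line and ABCC3 in the SUM159 line. The summed RPKM of the 7 transporters was 32.7 in the MDA-MB-231 line with DMSO, 28.4 with MBZ, 76.2 in the SUM159 line under DMSO and 56.9 with MBZ. Both SUM159 libraries therefore lay above both MDA-MB-231 libraries. ABCC1 made up 61.5% of this sum in the MDA-MB-231 line under DMSO and 49.6% with MBZ, against 19.1% and 18.0% in the SUM159 line. ABCC3 made up 47.8% and 43.5% of the sum in the SUM159 line and 15.3% and 17.9% in the MDA-MB-231 line.

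**Figure D1:**
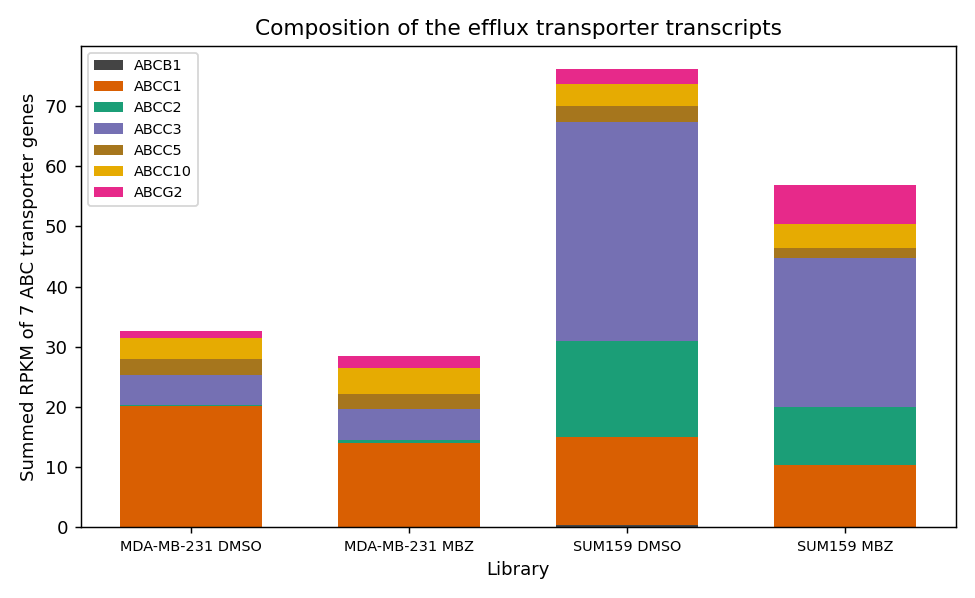
The summed RPKM of the 7 ABC transporter genes is stacked by gene for each of the 4 libraries (1 library per condition, no error bars). ABCC1 fills most of the MDA-MB-231 DMSO bar (61.5%), ABCC3 and ABCC2 appear as large blocks in the SUM159 line (47.8% and 21.1% with DMSO), and the ABCG2 block widens with MBZ in the SUM159 line from 3.25% to 11.4%.

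In MDA-MB-231 cells the order of the RPKM levels was MVP, ABCC1, ABCC3, ABCC10, ABCC5, ABCG2, ABCC2 and ABCB1 with either treatment, and no neighbours in that order had overlapping 95% Poisson intervals. In SUM159 cells with DMSO the order was MVP, ABCC3, ABCC2, ABCC1, ABCC10, ABCC5, ABCG2 and ABCB1, and the intervals of ABCC5 and ABCG2 overlapped. With MBZ it was MVP, ABCC3, ABCC1, ABCC2, ABCG2, ABCC10, ABCC5 and ABCB1, and the intervals of ABCC1 and ABCC2 overlapped. ABCG2 moved in this order from below ABCC5 to above ABCC10. Among the 48 ABC genes listed, ABCC1 ranked 2 in the MDA-MB-231 line with DMSO, behind ABCF1, a translation factor of the family with no transport role. ABCF3 came next and close to it, at 19.4 against 20.1 RPKM. With MBZ ABCC1 ranked 4 in that line. ABCC3 ranked 2 in the SUM159 line with DMSO, behind the peptide transporter subunit TAP1, and 3 with MBZ. With DMSO ABCF1 came next and close to it, at 35.9 against 36.4 RPKM.

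**Figure D2:**
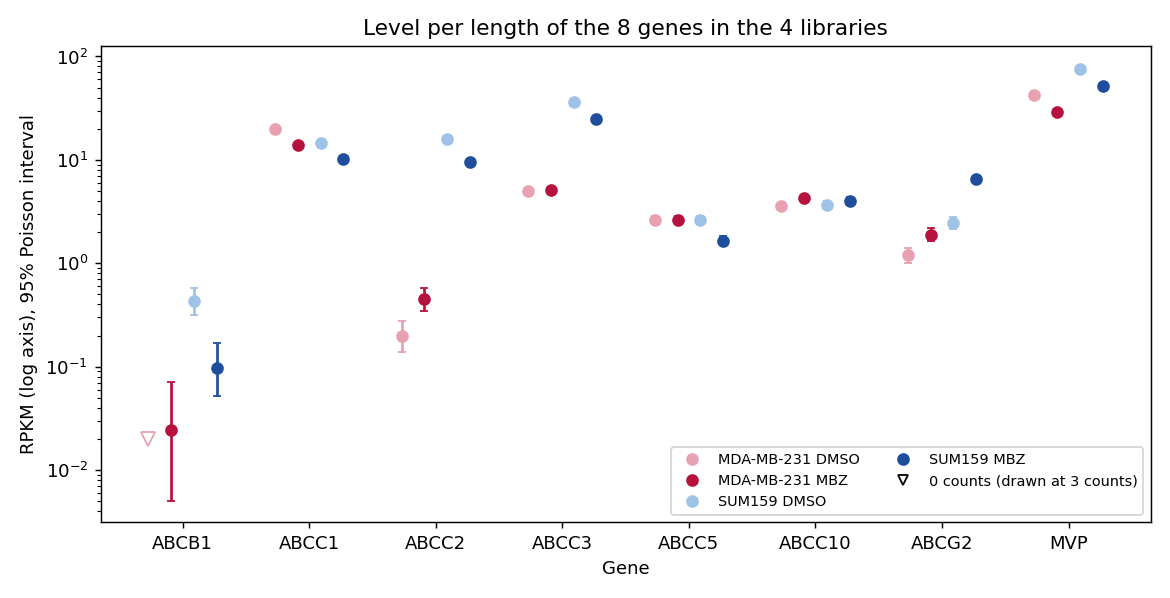
RPKM of each gene on a log axis, with 1 point per library and 95% Poisson intervals that cover counting error only. The open triangle marks ABCB1 in the MDA-MB-231 line with DMSO, which had 0 counts and is drawn at the RPKM of 3 counts. ABCC2 and ABCC3 separate the lines, and ABCG2 is highest in the SUM159 line with MBZ (6.47 RPKM).

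Changes with MBZ were taken between the 2 libraries of a line, with Clopper-Pearson intervals that cover counting error only. A gene is said to rise or fall, or to be higher or lower with MBZ, where the fold change reached 1.5 with counts averaging at least 10.

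ABCB1 (P-glycoprotein; ENSG00000085563, chromosome 7 from 87503017 to 87713323, minus strand, 28 exons) was at or under the limit of 3 counts in the MDA-MB-231 line. Its counts were 0 under DMSO and 3 under MBZ in the MDA-MB-231 line, and 46 under DMSO and 13 with MBZ in the SUM159 line. The SUM159 DMSO library held most of the ABCB1 reads of the study. No fold was computed in the MDA-MB-231 line. In SUM159 cells ABCB1 fell by 2.13 on the log2 scale (95% counting interval -3.15 to -1.23), which is 4.37-fold lower, from a level of 0.432 to 0.0982 RPKM. ABCB4, the phospholipid transporter gene 22.6 kb from ABCB1, had 33 counts under DMSO and 2 under MBZ in the SUM159 line (log2 fold change -4.27, interval -7.47 to -2.39), and 7 and 2 counts in the MDA-MB-231 line. SLC25A40 on the other side of ABCB1 had log2 fold changes of -0.03 and 0.03 in MDA-MB-231 and SUM159 cells. Of the 10 markers of other cell types, 5 of the 7 compared in the SUM159 line were also at least 1.5-fold lower with MBZ, against 21.7% of all genes, among them PDGFRB (2235 to 281 counts) and COL3A1 (303 to 33 counts). Of the endothelial markers, KDR was higher (2 to 20 counts, log2 fold change 2.94) and PECAM1 had a value of 0.017 (655 to 825 counts). CD3E had 0 counts under DMSO and 1 with MBZ and ADIPOQ had 0 in both. Their part in the ABCB1 value was not tested.

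ABCG2 (the breast cancer resistance protein, which works as a dimer; ENSG00000118777, chromosome 4 from 88090150 to 88231628, minus strand, 16 exons) rose with MBZ in both lines. Its counts were 155 under DMSO and 202 under MBZ in the MDA-MB-231 line, and 230 under DMSO and 747 with MBZ in the SUM159 line. In RPKM these were 1.19, 1.90, 2.48 and 6.47, so each MBZ library lay above the DMSO library of its line and the SUM159 MBZ library above the other 3. The log2 fold change was 0.65 in the MDA-MB-231 line (interval 0.35 to 0.97, 1.57-fold) and 1.38 in the SUM159 line (interval 1.17 to 1.60, 2.61-fold). The change in the SUM159 line was larger by 0.73 on the log2 scale (interval 0.36 to 1.10, counting error only). In the model over both lines the shared log2 change was 1.06 (SE 0.38), with an unadjusted p of 0.0265 and an adjusted p of 0.631 in edgeR's quasi-likelihood test, which did not pass the threshold. Its adjusted p was between 0.373 and 1 under the alternatives. With a library left out and cell line dropped from the model, which lets the line difference into the value, it was 0.027 without the SUM159 MBZ library, 0.77 without the MDA-MB-231 DMSO library, and 1.85 without the MDA-MB-231 MBZ or the SUM159 DMSO library. The neighbour PPM1K, 26 kb away, was higher with MBZ in the MDA-MB-231 line (log2 fold change 1.17) and had a value of -0.16 in the SUM159 line, and PKD2 on the other side was lower in the SUM159 line (-1.09).

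ABCC2 (MRP2, known as the exporter of conjugated bilirubin into bile; ENSG00000023839, chromosome 10 from 99782640 to 99852594, plus strand, 32 exons) moved in opposite directions in the 2 lines. Its counts were 36 under DMSO and 67 under MBZ in the MDA-MB-231 line, and 2084 under DMSO and 1553 with MBZ in the SUM159 line. The levels were 0.198 and 0.450 RPKM in the MDA-MB-231 line and 16.1 and 9.61 RPKM in the SUM159 line, so the lines did not overlap with either treatment. With MBZ it rose 2.24-fold in the MDA-MB-231 line (log2 fold change 1.17, interval 0.56 to 1.80) and fell by 0.74 on the log2 scale in the SUM159 line (interval -0.84 to -0.65), which is 1.67-fold lower. Scaled by total counts, the value in the SUM159 line was -0.44 and no longer past 1.5-fold. The neighbour CUTC was higher with MBZ in either line (log2 values of 0.61 and 0.63), and DNMBP on the other side had log2 fold changes of -1.09 and 0.51.

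ABCC1 (MRP1, which exports glutathione conjugates and several natural-product drugs; ENSG00000103222, chromosome 16 from 15949138 to 16143257, plus strand, 31 exons) had almost the same value in both lines. Its counts were 4082 under DMSO and 2338 under MBZ in the MDA-MB-231 line, and 2103 and 1846 in the SUM159 line. The log2 fold change was -0.53 (interval -0.61 to -0.46) in the MDA-MB-231 line and -0.50 (interval -0.60 to -0.41) in the SUM159 line, and neither reached 1.5-fold. The 2 values differed by 0.027 (interval -0.089 to 0.14), which is not distinguishable from 0 at this depth. ABCC6, the related gene 6.3 kb from ABCC1, had 58 and 38 counts in the MDA-MB-231 line and 21 and 26 in the SUM159 line, or log2 values of -0.34 (interval -0.97 to 0.28) and -0.0081 (-0.89 to 0.89).

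ABCC3 (MRP3, an exporter of glucuronides and bile salts; ENSG00000108846, chromosome 17 from 50634777 to 50692253, plus strand, 31 exons) was the most abundant pump transcript in the SUM159 line. Its counts were 1120 under DMSO and 928 under MBZ in the MDA-MB-231 line, and 5795 and 4908 in the SUM159 line. In RPKM the levels were 5.01 and 5.08 against 36.4 and 24.8. The log2 fold change was 0.0012 (interval -0.13 to 0.13) in the MDA-MB-231 line and -0.56 (interval -0.61 to -0.50) in the SUM159 line, the latter 1.47-fold lower and short of the 1.5-fold threshold.

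ABCC5 (MRP5, an exporter of cyclic nucleotides and nucleotide analogs; ENSG00000114770, chromosome 3 from 183919934 to 184017939, minus strand, 30 exons) had 695 counts under DMSO and 565 under MBZ in the MDA-MB-231 line, and 492 and 389 in the SUM159 line. Its level was alike in 3 libraries, at 2.63, 2.62 and 2.61 RPKM, and lower in the SUM159 line with MBZ, at 1.66 RPKM. The log2 fold change was -0.026 (interval -0.19 to 0.14) in the MDA-MB-231 line, and in the SUM159 line ABCC5 fell by 0.66 on the log2 scale (interval -0.85 to -0.46), 1.58-fold lower. Scaled by total counts this value was -0.35 and not past 1.5-fold.

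ABCC10 (MRP7, an exporter of taxanes; ENSG00000124574, chromosome 6 from 43427366 to 43450427, plus strand, 22 exons) showed the narrowest range of levels of the 8 genes, as the ratio of the highest to the lowest RPKM. Its counts were 666 under DMSO and 654 under MBZ in the MDA-MB-231 line, and 493 and 672 in the SUM159 line, or between 3.54 and 4.25 RPKM. The log2 values were 0.25 (interval 0.088 to 0.40) and 0.13 (interval -0.039 to 0.30), neither past 1.5-fold. Its exons share 76 bases with exons of DLK2 on the other strand, and whether the counting used the strand is not stated.

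MVP (ENSG00000013364, chromosome 16 from 29820394 to 29848039, plus strand, 15 exons) had 6023 counts under DMSO and 3406 under MBZ in the MDA-MB-231 line, and 7769 and 6599 in the SUM159 line. In RPKM these were 42.2, 29.2, 76.4 and 52.1, so the value of each MBZ library was below that of the DMSO library of its line. The log2 fold change was -0.55 in both lines (intervals -0.61 to -0.49 and -0.60 to -0.50), short of 1.5-fold, and the 2 values differed by -0.0019 (interval -0.079 to 0.075). With DESeq2 size factors the value in the MDA-MB-231 line was -0.60 and past 1.5-fold. Its exons share 339 bases with PAGR1 and an unnamed gene on the same strand, reads of which a union counter would set aside. The 2 other vault proteins, TEP1 and PARP4, were not past 1.5-fold in either line: TEP1 had log2 fold changes of 0.41 and 0.20, and PARP4 of -0.51 and 0.18, in MDA-MB-231 and SUM159 cells.

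**Figure D3:**
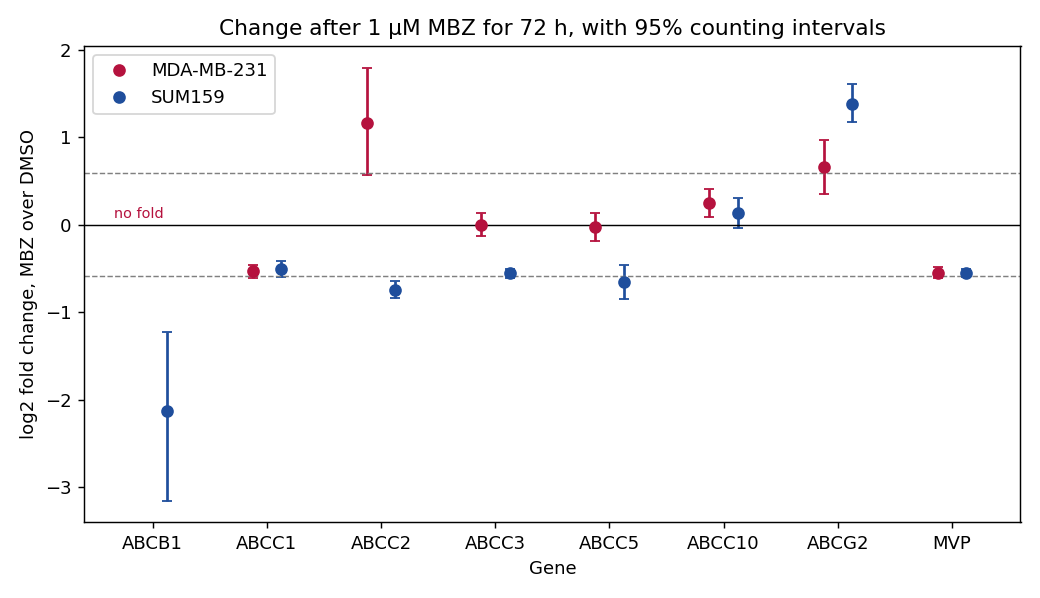
Log2 fold change of MBZ over DMSO for each gene in each line, with 95% Clopper-Pearson intervals on the reads of the 2 libraries of a line, and dashed lines at 1.5-fold in either direction. ABCG2 lies above the upper line in both lines of cells (0.65 and 1.38), ABCC2 lies on opposite sides of 0 (1.17 and -0.74), and the ABCC1 and MVP points of both lines lie between -0.50 and -0.55.

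In all, 2 of the 7 efflux genes compared in the MDA-MB-231 line were at least 1.5-fold higher with MBZ (ABCC2 and ABCG2) and 0 were lower. Among all 15142 genes compared in that line, 18.3% were higher and 15.8% lower by the same rule. In SUM159 cells 1 of 8 was higher (ABCG2) and 3 were lower (ABCB1, ABCC2 and ABCC5), against 21.5% higher and 21.7% lower among 15674 genes. The median log2 fold change of the efflux genes was 0.0012 in the MDA-MB-231 line and -0.55 in the SUM159 line, and that of all genes -0.018 and -0.034. By number, 2765 genes were higher and 2386 lower in the MDA-MB-231 line, and 3376 higher and 3403 lower in the SUM159 line. Scaling by total counts moved the medians of all genes to 0.25 and 0.27 and these numbers to 4408 and 1146, and to 5135 and 2004, with 1 of the 8 genes then lower in the SUM159 line. In the test of a change shared by both lines, 0 of the 8 passed an adjusted p of 0.05 in edgeR's quasi-likelihood test, 1 had an unadjusted p under 0.05 (ABCG2), and DESeq2 called 0. That test called 1 of 16100 genes (0.00621%), with 1150 at an unadjusted p under 0.05, and DESeq2 called 100. The lines stand in for replicates in it, so its spread is how far the responses of the lines lie apart, and not the spread between cultures.

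In the same model, with treatment as a covariate, 3 of the 8 genes differed between the lines, all of them higher in the SUM159 line: ABCC2 by 5.39 on the log2 scale (SE 0.54, adjusted p 0.00136), ABCC3 by 2.62 (SE 0.33, adjusted p 0.00294) and ABCG2 by 1.46 (SE 0.38, adjusted p 0.0359). Among all genes 11.6% were called higher in the SUM159 line and 9.85% higher in the MDA-MB-231 line. ABCC2 was 81.2-fold higher in SUM159 than in the MDA-MB-231 line under DMSO and 21.4-fold higher with MBZ. ABCC3 was 7.26-fold and 4.88-fold higher, and ABCG2 2.08-fold and 3.41-fold higher. The calls of ABCC2 and ABCC3 held under each alternative, with adjusted p of at most 0.00488 and 0.0303. That of ABCG2 did not: its adjusted p was 0.0802 without treatment in the model, and, with treatment also dropped, 0.341, 0.159 and 0.286 when the MDA-MB-231 DMSO, MDA-MB-231 MBZ or SUM159 MBZ library was left out, against 0.000319 without the SUM159 DMSO library. In these fits its log2 difference was between 0.71, without the SUM159 MBZ library, and 2.10, without the SUM159 DMSO library.

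Set against 3 counts per library, ABCB1 was 21.5-fold higher in SUM159 than in the MDA-MB-231 line with DMSO (46 against 0 counts). This value leaves out the counting error of the 46 reads. The lower 95% counting limit of the log2 ratio, 4.07, lies below it. With MBZ ABCB1 was 3.99-fold higher in the SUM159 line (13 against 3 counts, interval of the log2 ratio 0.13 to 4.45). Its log2 difference of 4.21 (SE 1.37) had an adjusted p of 0.0722 and did not pass, although it did with every gene of at least 1 count in the fit (adjusted p 0.00376) and, with treatment dropped from the model, without the SUM159 MBZ library (adjusted p 0.000464). In the same kind of fit it did not pass without the MDA-MB-231 DMSO, MDA-MB-231 MBZ or SUM159 DMSO library (adjusted p 0.278, 0.0969 and 0.238), and the log2 difference was 8.10 without the MDA-MB-231 MBZ library and between 3.03 and 5.15 without each of the other 3. MVP was 1.81-fold higher in the SUM159 line under DMSO and 1.79-fold higher with MBZ, with a log2 difference of 0.89 (SE 0.31, adjusted p 0.0897). ABCC1 was 1.38-fold and 1.37-fold higher in the MDA-MB-231 line, with a log2 difference of -0.42 (SE 0.28, adjusted p 0.339). ABCC5 and ABCC10 had log2 differences of -0.29 (adjusted p 0.575) and 0.035 (adjusted p 0.945). Adjusted p-values of line differences come from the quasi-likelihood test of edgeR, Benjamini-Hochberg adjusted, in which the treatments stand in for replicates.

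**Figure D4:**
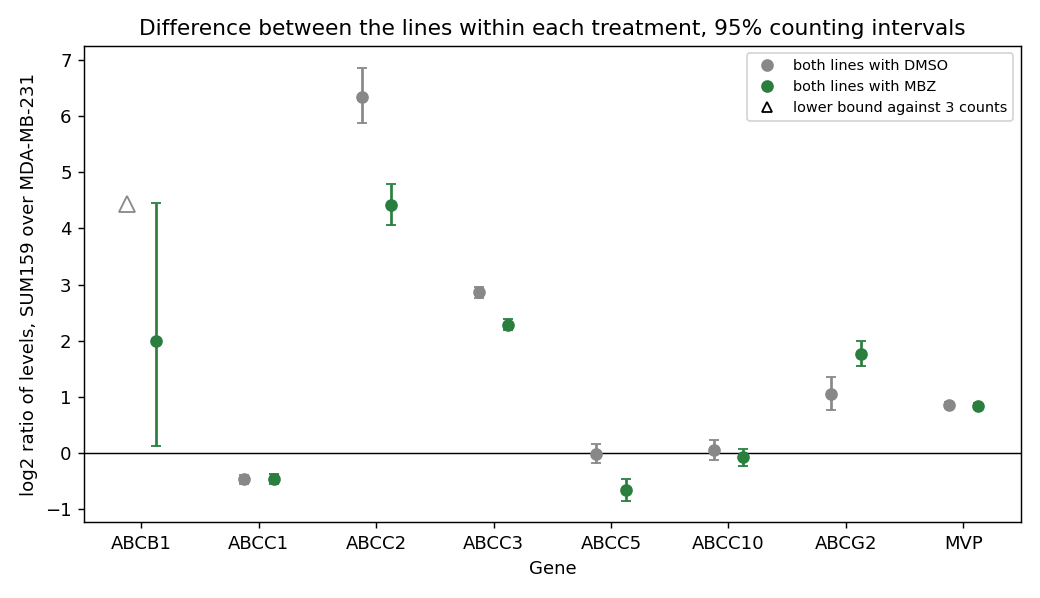
Log2 ratio of the level in the SUM159 line over that in the MDA-MB-231 line, for the DMSO libraries and for the MBZ libraries, with 95% counting intervals. The open triangle, labelled a lower bound, is ABCB1 with DMSO, set against 3 counts. Its lower 95% counting limit, 4.07 on the log2 scale, lies below the triangle. Of the drawn points ABCC2 lies highest with both treatments (81.2-fold and 21.4-fold). ABCB1 with DMSO has no upper counting limit and cannot be ranked against it. The intervals of ABCC10 include 0.

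The other 41 ABC genes listed hold further drug exporters, among them ABCC4 (MRP4), ABCC11 (MRP8) and ABCB5, beside transporters of lipids, peptides, bile salts or ions and factors that act in translation. Of 27 compared in the MDA-MB-231 line, 5 were at least 1.5-fold higher with MBZ and 5 lower, against 18.3% and 15.8% of all genes, and the median log2 fold change was 0.12. Of 29 compared in the SUM159 line, 4 were higher and 11 lower, against 21.5% and 21.7% of all genes, with a median of -0.31. ABCC4, an exporter of cyclic nucleotides and nucleotide analogs, had 940 and 868 counts in the MDA-MB-231 line (log2 fold change 0.16, interval 0.023 to 0.29). In SUM159 cells it went from 897 to 456 counts and fell by 1.29 on the log2 scale (interval -1.46 to -1.13), 2.45-fold lower. ABCC11 had 4 counts in each MDA-MB-231 library and 1 and 12 in the SUM159 line, and ABCB5 had at most 1 count in any library. ABCC4, ABCC11 and ABCB5 were named after their values were seen. ABCC9, a regulatory subunit of ATP-sensitive potassium channels, was higher in both lines, from 9 to 61 counts in the MDA-MB-231 line (log2 fold change 3.01) and from 24 to 99 in the SUM159 line (1.72). In MDA-MB-231 cells ABCG4 (4 to 20 counts, 2.55) and ABCA5 (60 to 112 counts, 1.17) were also among the highest changes. The lowest were ABCA8 (22 to 4 counts, -2.16), ABCA3, the surfactant lipid transporter of the lung (1327 to 517 counts, -1.09), and ABCA2 (1655 to 695 counts, -0.98).

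In SUM159 cells the highest changes of the other ABC genes were those of ABCA13 (50 to 499 counts, interval of the log2 fold change 2.58 to 3.45) and ABCA10 (28 to 151 counts, log2 fold change 2.11), beside ABCC9. The lowest, beside ABCB4, were ABCA8 (372 to 47 counts, -3.30) and ABCA9 (174 to 40 counts, -2.43). ABCA8, ABCA9 and ABCA10 lie in the ABCA cluster of chromosome 17 with ABCA5 and ABCA6, and genes of this cluster moved in both directions. They are related genes, and how reads that could belong to more than 1 of them were counted was not examined. Of the 41 genes, 29 had enough counts for the quasi-likelihood test between the lines and 12 did not. Of the 29, 7 were called higher in the SUM159 line and 2 higher in the MDA-MB-231 line, against 11.6% and 9.85% of all genes. ABCG1, a cholesterol exporter, was higher in the SUM159 line by 5.85 on the log2 scale (SE 0.52, adjusted p 0.000929), and ABCA5 had a log2 difference of -3.11 (SE 0.68, adjusted p 0.0208).

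**Figure D5:**
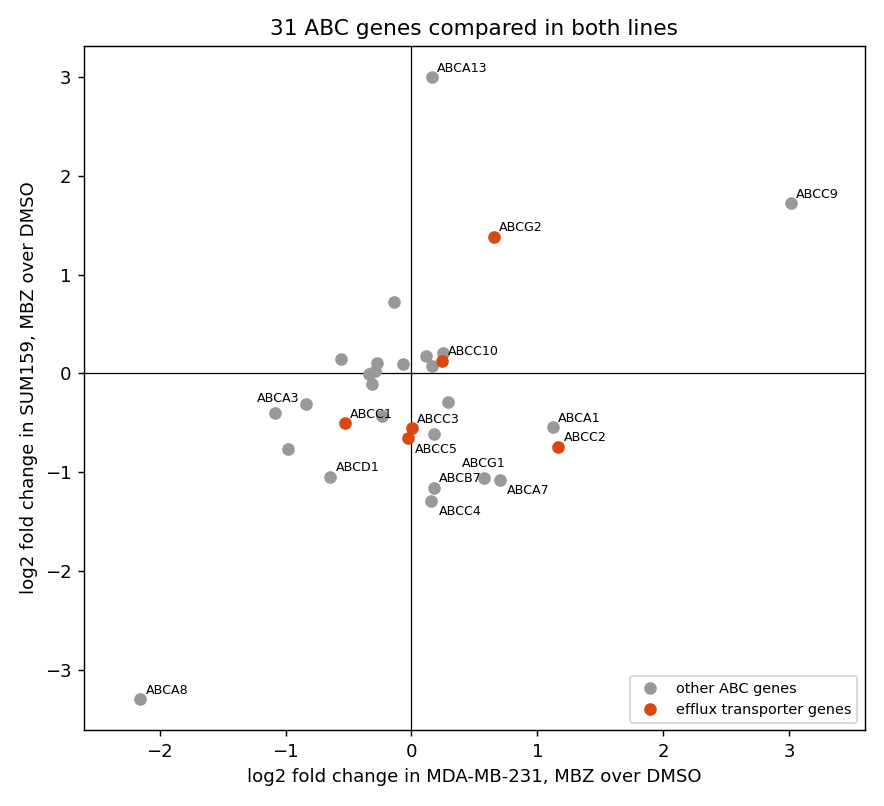
Log2 fold change of MBZ over DMSO in the MDA-MB-231 line (x axis) and in the SUM159 line (y axis) for the 31 ABC genes whose counts averaged 10 or more in each line, the 6 efflux genes among them coloured. ABCG2 (0.65 and 1.38) lies up and right of the origin with ABCC9 (3.01 and 1.72), ABCC2 (1.17 and -0.74) lies right of it and below, and ABCA8 (-2.16 and -3.30) lies at the lower left.

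Conjugates with glutathione, glucuronic acid or sulfate are among the substrates of the ABCC pumps. A list of 22 enzymes held those that make glutathione or attach it to other compounds, with sulfotransferases and the glycosyltransferases UGT1A6 and UGT8. Of 18 compared in the MDA-MB-231 line, 2 were at least 1.5-fold higher with MBZ and 4 lower (median log2 fold change -0.42), beside 18.3% and 15.8% of all genes. Of 17 in the SUM159 line, 1 was higher and 5 were lower (median -0.32), beside 21.5% and 21.7%. The sulfotransferase SULT1A1 is 1 of the 5, on 12 and 8 counts (-0.89, interval -2.40 to 0.51), and UGT8 is among the 18, with a value of -0.43. The glutathione transferase GSTM1 went from 315 to 85 counts in the MDA-MB-231 line (log2 fold change -1.62) and GSTP1 from 5363 to 2194 (-1.02). In SUM159 cells GSTP1 had a value of 0.020, and MGST2 (283 to 138 counts, -1.35) and GSTA4 (434 to 244 counts, -1.15) had the largest changes. The 2 genes that were higher in the MDA-MB-231 line, GCLC and GCLM, encode the subunits of the enzyme for the rate-limiting step of glutathione synthesis, with log2 fold changes of 0.99 and 0.93. In SUM159 cells their values were -0.36 and 0.49. SULT1A1, UGT8, GCLC and GCLM were named after their values were seen.

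Transcription factors known to act on efflux genes were listed as well, together with KEAP1, a regulator of NRF2 that is not itself such a factor. Of 18 compared in the MDA-MB-231 line, 4 were higher and 2 lower (median log2 fold change -0.019), and of 19 in the SUM159 line, 3 were higher and 7 lower (median -0.50). The shares of all genes called higher and lower were 18.3% and 15.8% in the former line and 21.5% and 21.7% in the latter. NFYB, a subunit of NF-Y, went from 1052 to 338 counts in the SUM159 line (-1.95), against -0.19 in the MDA-MB-231 line. MYCN went from 85 to 17 counts in the SUM159 line (-2.63) and had 0 counts in both MDA-MB-231 libraries, and ESR1 went from 2 to 18 counts in the SUM159 line (2.79, interval 0.79 to 6.01). Of the factors whose motifs were searched, and which were named for that after their values were seen, AHR had log2 fold changes of 0.72 and -0.84, NFE2L2 (NRF2) of 0.56 and -0.50, NFYA of 0.062 and 0.64, and SP1 of -0.39 and -0.43. NR1I2, the xenobiotic receptor PXR, had 0 counts in 3 libraries and 6 in the SUM159 line with MBZ.

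Scaffolds that hold pumps at the membrane, with the kinase PIM1, formed a list of 6 genes. In MDA-MB-231 cells 4 of 6 were at least 1.5-fold lower with MBZ and 0 higher (median log2 fold change -0.69), where 15.8% of all genes were lower, and in the SUM159 line 1 of 5 was lower and 1 higher (median 0.14), where 21.7% of all genes were lower and 21.5% higher. The scaffold NHERF1 fell in the MDA-MB-231 and the SUM159 line, by log2 values of -0.94 and -0.76. Ezrin (EZR), a linker of membrane proteins to actin, had values of -0.27 and 0.98, and moesin (MSN) of -0.78 and 0.31. PDZK1 went from 22 to 10 counts in the MDA-MB-231 line (-0.86, interval -2.11 to 0.27) and had 8 and 7 counts in the SUM159 line.

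For each efflux gene the 1 gene with the nearest pattern was found among 11062 genes, by the Euclidean distance over 3 values: the log2 fold change in each line and the log2 ratio of the DMSO libraries. ECH1, a fatty acid oxidation enzyme, lay nearest to ABCC1 (distance 0.0429), OTUD5 nearest to MVP (0.0452), COG5 nearest to ABCC10 (0.043) and N4BP1 nearest to ABCC5 (0.0649). The 3 genes that differed between the lines had looser neighbours: VEGFA for ABCG2 (0.234), ENG for ABCC2 (0.237) and PIR for ABCC3 (0.266). The line ratio is 1 of the 3 values of the distance. This contrast therefore follows in part from how the genes were picked, and no conclusion is drawn from it. VEGFA had log2 fold changes of 0.75 and 1.20, beside the 0.65 and 1.38 of ABCG2. ABCB1 is left out, since its value in the MDA-MB-231 line rests on a count of 0. With 4 libraries such nearness describes 3 numbers only.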

How the data were processed

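The 4 libraries, 1 for each cell line with 1 μM MBZ or with DMSO for 72 h, were assigned by the cell line and dose in the labels. The authors mapped paired reads to GRCh38 with STAR 2.5 and counted them with HTSeq 0.6.1 in union mode, and the deposited values are raw counts per gene; the submitters' notes also name edgeR 3.16.5. The annotation release and the strand setting are not given in the sources used here, and both can change the counts of overlapping genes. The table holds 58735 genes, with 0 rows that name no gene and 0 columns left unmapped, and 58207 genes were matched to GENCODE release 44, which gave coordinates and exon lengths.

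Fold changes within a line came from edgeR 4.0.16 (R 4.3.3, TMM over the pair, prior count 0.125), with Clopper-Pearson 95% intervals on the reads of the 2 libraries. They compare libraries, not conditions, and cover counting error only, since 1 library per condition holds no spread between cultures. PCR copies were not removed by molecular identifiers, so the intervals can be too narrow even for counting error. A gene was compared at a mean of at least 10 counts and called at a fold change of at least 1.5, with no fold where both libraries held 3 or fewer counts. Levels and ratios between lines used TMM over the 4 libraries, which shifts the MBZ change by 0.0176 on the log2 scale in the MDA-MB-231 line. Shared changes and line differences were tested with glmQLFit and glmQLFTest (line and treatment in the model, filterByExpr, adjusted p under 0.05). The p-values measure only the spread between these libraries.

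The genes and lists were chosen with earlier results of these data known. Named genes were the 8 efflux genes, their neighbours, ABCB4 and ABCC6, the 3 highest and 3 lowest other ABC genes of each line, up to 4 genes of each supporting list and the nearest pattern of each efflux gene. Further markers of the lines and of other cell types, and ABCF1, ABCF3, TAP1, ABCA7, ABCG1 and KEAP1, were named outside this rule after their values were seen, as were the genes so described in the text. Alternatives were DESeq2 1.42.0 size factors and Wald test, RLE, TMM over 4 libraries, total counts, a fold of 2, a mean of 100 counts, genes with 1 count or more, a prior count of 2, the longest transcript and a model without the other factor. Leaving out each library, with 1 factor in the model, was chosen after seeing the data. The scripts were tested on simulated data. There the quasi-likelihood test recovered 93% of 4-fold changes with treatment and 91% of those between lines, at a relative spread (BCV) of 0.2. At a BCV of 0.4 it recovered 14.5% and 16%. The common BCV fitted to these libraries was 0.323, so genes that were not called may still have changed. Promoters are from RefSeq (GRCh38.p14). Proteins were not analysed here, and some genes of the supporting lists are not reported here.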

Additional observations from a re-analysis of the deposited data

Results flagged for a closer look

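ABCC2 moved in opposite directions in the 2 lines, with counting intervals on opposite sides of 0. Its log2 fold change of MBZ over DMSO was 1.17 in the MDA-MB-231 line (36 and 67 counts) and -0.74 in the SUM159 line (2084 and 1553 counts), a difference of -1.91 (interval -2.50 to -1.32). With 1 library per condition, this difference was not tested against the spread between cultures. The pattern is not particular to ABCC2. ABCA7, another ABC gene, went from 370 to 499 counts in the MDA-MB-231 line (log2 fold change 0.70). In the SUM159 line it went from 816 to 481 counts (-1.08). AHR, of the listed transcription factors, had values of 0.72 and -0.84.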

How the results depend on the processing

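No paired analysis of replicates was possible because each line and treatment has 1 library and all carry the same replicate number, so no number could serve as a block. Cell line is a term of the model of the shared change, which compares MBZ with DMSO within lines. At a fold change of at least 2 the efflux genes called higher in MDA-MB-231 cells went from 2 to 1, and those lower in SUM159 cells from 3 to 1. A mean of at least 100 counts left 1 higher in MDA-MB-231 cells, since ABCC2 has fewer counts. DESeq2 size factors gave 1 lower gene in MDA-MB-231 cells (MVP), and total counts 1 lower in SUM159 cells (ABCB1). Total counts moved the values in MDA-MB-231 and SUM159 cells to -0.27 and -0.20 for ABCC1, -0.28 and -0.25 for MVP, 0.27 and -0.25 for ABCC3 and 0.51 and 0.43 for ABCC10, that of ABCC5 in MDA-MB-231 cells from -0.026 to 0.24, and that of ABCG2 in SUM159 cells to 1.68. Over all genes, the numbers higher and lower were 1370 and 779 in MDA-MB-231 and 1996 and 1676 in SUM159 cells at 2-fold, and 9089 and 5693, and 11750 and 6844, with every gene of at least 1 count. At a mean of at least 100 counts, MDA-MB-231 cells had 1114 genes called higher against 1676 called lower, so that lower calls became the more numerous, while SUM159 cells had 1422 higher ones and 2250 lower ones. Genes with a shared change numbered 1, against 100 with DESeq2, 298 with every gene of at least 1 count and 0 without cell line, and 0 with each library left out in turn, which was run with 1 factor in the model. The cause was not tested. Genes that differed between the lines numbered 3455, and between 1128 and 4757 with a library left out (1128 without the MDA-MB-231 DMSO and 1387 without the MDA-MB-231 MBZ library). The shared change of ABCC2 went from 0.14 to -0.65 without cell line in the model and that of ABCB1 from -0.90 to 0.36 with DESeq2, which gave no adjusted p for it. The line difference of ABCC10 went from 0.035 to -0.012 with every gene of at least 1 count. With a library left out and 1 factor in the model, in which a lone library is assumed to vary like the pair of the other group, the shared change ranged from -3.11 to 6.09 for ABCB1, -4.20 to 4.71 for ABCC2 and -2.05 to 1.61 for ABCC3, and the line difference from -0.62 to 0.024 for ABCC5 and -0.13 to 0.14 for ABCC10. The values that turned direction in this way had adjusted p-values between 0.905 and 1. With both factors in the model, leaving out a library leaves no residual degrees of freedom. The depth limits ABCB1 in MDA-MB-231 cells, at 3 or fewer counts.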

Other observations

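Carriers that bring drugs into cells were compared as well. Of 9 uptake carriers compared in the MDA-MB-231 line, 1 was at least 1.5-fold higher with MBZ and 4 were lower (median log2 fold change -0.38), and of 9 in the SUM159 line 2 were higher and 3 lower (median 0.057). Of all genes, 18.3% were higher and 15.8% lower in the MDA-MB-231 line, and 21.5% and 21.7% in the SUM159 line. SLCO2A1, the prostaglandin transporter, was lower in both lines, from 26 to 1 counts in the MDA-MB-231 line (log2 fold change -4.28, interval -9.79 to -1.82) and from 636 to 60 in the SUM159 line (-3.72). SLC19A1, the reduced folate carrier that takes up methotrexate, had 18 and 3 counts in the MDA-MB-231 line (-2.27, interval -4.72 to -0.54) and 816 and 1057 in the SUM159 line (0.057), and it was higher in the SUM159 line by 6.86 on the log2 scale (SE 0.61, adjusted p 0.00093 in edgeR's quasi-likelihood test). SLCO1A2 went from 28 to 12 counts in the SUM159 line, with a log2 fold change of -1.53.

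Among 5 efflux proteins outside the ABC family, 0 were higher in either line, 1 was lower in the MDA-MB-231 line and 2 of the 4 compared in the SUM159 line, where 15.8% and 21.7% of all genes were lower and 18.3% and 21.5% higher. SLC47A2, an exporter of organic cations, had 74 counts under DMSO and 3 under MBZ in the SUM159 line (log2 fold change -4.88, interval -7.25 to -3.34) and 21 and 10 in the MDA-MB-231 line (-0.79, interval -2.05 to 0.35). ATP7A, a copper pump, had a log2 fold change of 0.19 in the MDA-MB-231 line and -0.83 in the SUM159 line. ATP7B had values of -0.30 and -0.055. SLC47A1 had 160 and 123 counts in the MDA-MB-231 line and 3 and 7 in the SUM159 line, a log2 difference of -4.60 (SE 0.71, adjusted p 0.00624).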
